A study of Mus musculus with 9 samples.

Results

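The genes described here encode the matrix metalloproteinases (Mmp), the ADAM proteases, the ADAMTS proteases and their ADAMTS-like relatives (Adamtsl), and the tissue inhibitors of metalloproteinases (Timp). Members were chosen by gene symbol alone: Mmp, Adam or Adamts followed by a number, with the letter a or b allowed after Mmp and Adam numbers, and Adamtsl or Timp followed by 1 digit. This gave 84 of the 23361 genes in the table, made up of 23 Mmp, 33 Adam, 19 Adamts, 5 Adamtsl and 4 Timp genes. RNA was sequenced from sorted cells of mouse skin. Their label is melanocyte stem cells, which renew the pigment cells of the hair follicle. There were 9 libraries, 3 labelled Quiescent, 3 labelled Active and 3 labelled UVB, a band of ultraviolet light. All came from mice of 10 weeks with the genotype label TBPT, whose alleles the labels do not spell out, so every group carries the same labelled genotype. The treatment label gives chemical depilation or UVB irradiation for every sample alike, and which groups were depilated is therefore not stated. Nothing says whether libraries of 1 group came from separate animals. The p-values therefore measure the spread between these libraries, which may be technical. Between pairs of libraries of 1 group, the chi-square per degree of freedom was 24.5 to 113.6, more than counting error alone gives. Whether that came from animals, sorting or library preparation was not tested.

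Matrix metalloproteinases are zinc enzymes made as inactive precursors. Most are secreted and cut collagens, gelatins, laminins and proteoglycans, while the membrane-type members stay on the cell surface. ADAMs are mostly membrane-bound and release growth factors, cytokines, adhesion molecules and Notch receptors from the surface, a step called shedding. ADAMTS proteases are secreted and process procollagens, fibrillin-rich fibres and the proteoglycans versican and aggrecan. ADAMTS-like proteins share their non-catalytic domains and have no protease domain. TIMPs bind the active site of these enzymes, and in skin the balance of proteases and inhibitors shapes the basement membrane, the dermal matrix and the passage of cells through both.

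Library totals ran from 21045070 to 35131778 fragments assigned to genes, and levels are given as CPM, fragments per 1000000 of the scaled library total, unless FPKM, which also divides by transcript length and so compares genes, is named. The markers of the labelled cell type were low in Quiescent: 7 melanocyte lineage genes summed to 10.3 to 66.4 CPM there, 7521 to 12073 in Active and 822 to 988 in UVB. Summed over 7 dermal fibroblast markers, most of them collagens and other matrix genes, the level was 335719 to 454283 CPM in Quiescent, 4762 to 6057 in Active and 21912 to 34326 in UVB. None of these 14 genes was at 0 in a group. The fibroblast sum was above the melanocyte sum in every Quiescent and UVB library and below it in every Active library. In these bulk samples fewer cells of a type and less RNA per cell cannot be told apart. The UVB libraries also differed from the rest in sex-linked transcripts, with Xist at 23353 to 30356 fragments against 4 to 12 in the others, so sex cannot be told apart from the UVB group. Where these marker sums move with a result below, their part in it was not tested.

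Of the 84 members, 54 passed the filter on low counts and were tested, and 30 were not. No fragment was assigned in any library to 14 of them: Adam2, Adam6a, Adam6b, Adam7, Adam20, Adam24, Adam25, Adam26a, Adam26b, Adam29, Adam34, Mmp7, Mmp20 and Mmp21. Many of these Adam genes are known from testis. The other 16 untested members had between 1 and 77 fragments over the 9 libraries together. Among them were Mmp8, the neutrophil collagenase, with 45 fragments, and the mouse counterparts of interstitial collagenase, Mmp1a with 45 and Mmp1b with 21, close copies whose counts are uncertain.

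Per length, the most abundant members in the Quiescent libraries were Mmp2 at 1449 ± 206 FPKM (SD, n = 3), Timp2 at 1234 ± 155, Mmp14 at 1033 ± 77.97 and Adamts2 at 928 ± 32.7. In Active the order was Mmp2 at 233 ± 62.7 FPKM, Timp2 at 189 ± 25.3, Adamts1 at 188 ± 68.8, Mmp14 at 183 ± 17.1 and Mmp15 at 119 ± 19.6. In UVB it was Mmp2 at 369 ± 31.3 FPKM, Mmp14 at 283 ± 61.6, Timp2 at 258 ± 28.6 and Adamts1 at 177 ± 45.4. Differences between genes were not tested. Mmp2 was the highest member in every library, and Timp2 exceeded Mmp14 in each Quiescent library. The order of Timp2, Adamts1 and Mmp14 in Active changed from library to library. Sums over a family are set by its most abundant members. Over the Mmp genes, mostly Mmp2 and Mmp14, the sum was 7810.0 ± 806 CPM in Quiescent, 1992 ± 328 in Active and 2542 ± 156 in UVB. Over the Timp genes, mostly Timp2 and Timp3, it was 5201 ± 754, 1012 ± 203 and 1303 ± 166 CPM. Over the Adam genes it was 929 ± 150.5 CPM in Quiescent, 1673 ± 145 in Active and 1792 ± 72.4 in UVB, of which Adam23 alone made 49.1 ± 34.7, 469 ± 159 and 475 ± 71.1 CPM. Gene by gene, in Active against Quiescent, 5 of 14 tested Adam genes rose and 6 fell (median log2 fold change -0.13), and 4 of 15 tested Mmp genes rose and 7 fell (median 0.35), so the sums do not describe the members. Under scaling by library size alone these splits were 7 and 3 for Adam, and 6 and 7 for Mmp.

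Changes were tested with edgeR's quasi-likelihood F test, and p-values were adjusted by the Benjamini-Hochberg method across the 15078 genes tested, with a threshold of 0.05. In Active against Quiescent, 14 of the 54 tested members were higher (25.9%) and 25 lower (46.3%), where 29.1% of all genes tested were higher and 29.2% lower. The median log2 fold change was -0.37 over the tested members and 0.01 over all genes. In UVB against Quiescent, 20 were higher and 20 lower (37.04% each), beside 25.8% and 23.2% of all genes, with medians of 0.03 and 0.02. In UVB against Active, 21 were higher (38.9%, beside 14.8% of all genes) and 1 lower (1.85%, beside 9.19%), with medians of 0.60 and 0.01. Whole groups did not overlap, with the first group higher or lower, for 33.5% and 32.7% of all genes in Active against Quiescent, for 30.2% and 27.4% in UVB against Quiescent, and for 25% and 21.7% in UVB against Active. The 2 comparisons against Quiescent share its libraries. Counts of calls by class or list below are to be read beside the shares called over all genes. Scaling by library size alone moved the median of all genes from 0.01 to 0.76 in Active against Quiescent and from 0.02 to 0.74 in UVB against Quiescent, and the members then split into 23 higher and 18 lower, and 27 higher and 10 lower. Under that scaling 7 lower calls in Active were lost, of Adam4, Adam5, Adam9, Adamts8, Adamts14, Adamtsl1 and Timp3. In UVB against Quiescent 10 were lost, of Adam15, Adam22, Adam33, Adamts8, Adamts10, Adamts15, Adamtsl1, Mmp11, Mmp19 and Timp3. Higher calls gained in Active under that scaling included Adam1a, Adam17, Adamts1 and Adamts3. Directions below are therefore relative to the bulk of genes.

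**Figure D1:**
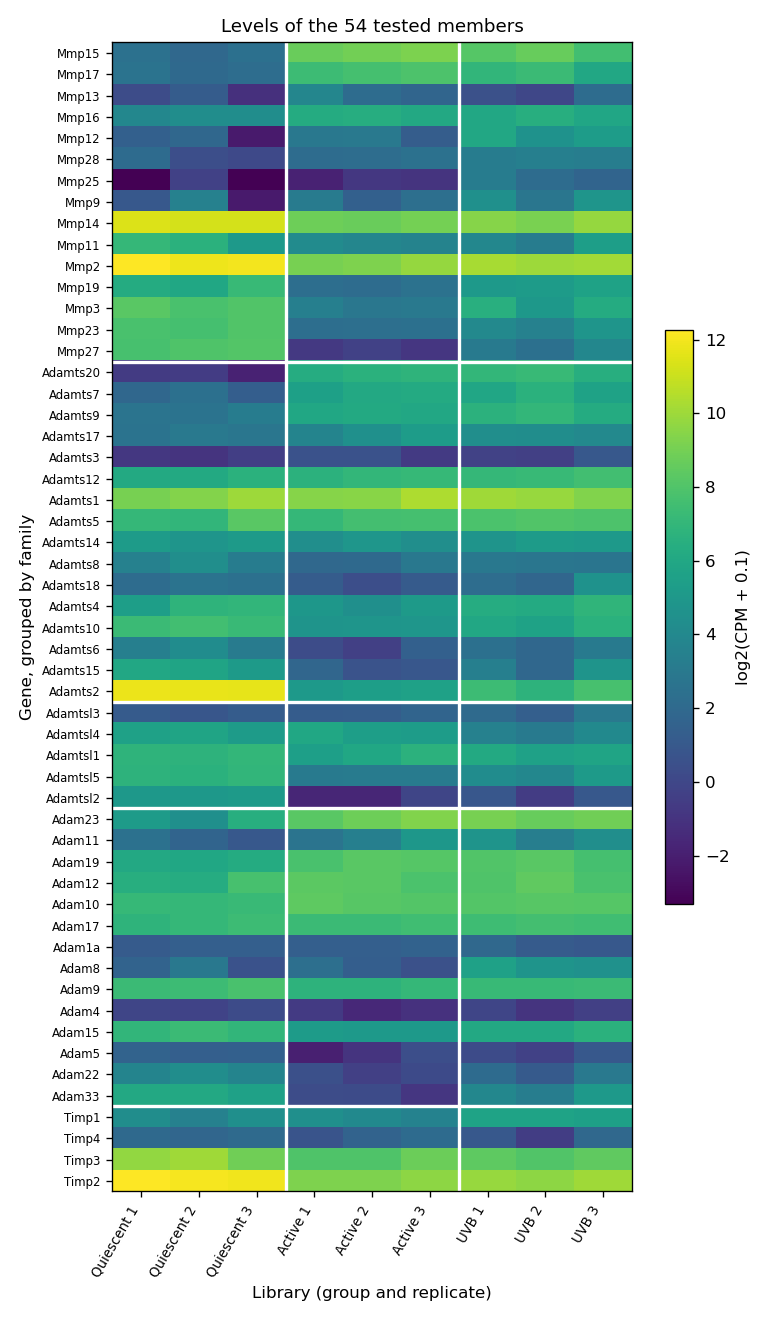
Levels of the 54 tested members in the 9 libraries, as log2(CPM + 0.1), with genes in rows grouped by family and libraries in columns by group. Mmp27, Adamts2 and Adamtsl2 are each brighter in the Quiescent columns than in the Active ones. Adamts20, Mmp15 and Mmp17 are each darker in Quiescent than in Active.

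A run of 10 Mmp genes lies on chromosome 9, at chr9:7272514-7699585 (GRCm38.p6), in the order Mmp13, Mmp12, Mmp1b, Mmp3, Mmp1a, Mmp10, Mmp8, Mmp27, Mmp20 and Mmp7. Only Mmp13, Mmp12, Mmp3 and Mmp27 had enough fragments to be tested. Their promoters are shown because these neighbours differed in which group they were highest, and because several genes of this run are textbook targets of AP-1, a family of transcription factors made of Fos and Jun proteins. Each line gives 150 bases before the RefSeq start and the first 20 from it on, on the plus strand. Capitals mark the AP-1 motif TGANTCA and the TATA box motif TATAAA, searched on both strands. The windows are chr9:7272364-7272533 for Mmp13, chr9:7347224-7347393 for the second listed start of Mmp12, chr9:7445672-7445841 for Mmp3 and chr9:7571246-7571415 for Mmp27.
Mmp13: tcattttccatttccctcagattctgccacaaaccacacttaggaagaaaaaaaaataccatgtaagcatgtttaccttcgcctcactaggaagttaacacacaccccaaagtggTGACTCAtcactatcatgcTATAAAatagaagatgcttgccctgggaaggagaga
Mmp12: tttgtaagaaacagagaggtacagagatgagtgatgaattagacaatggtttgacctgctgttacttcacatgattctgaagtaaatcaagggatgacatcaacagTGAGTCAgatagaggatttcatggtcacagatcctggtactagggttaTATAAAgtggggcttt
Mmp3: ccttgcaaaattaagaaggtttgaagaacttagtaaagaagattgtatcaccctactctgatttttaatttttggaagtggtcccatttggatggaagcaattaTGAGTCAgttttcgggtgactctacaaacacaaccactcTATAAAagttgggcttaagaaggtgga
Mmp27: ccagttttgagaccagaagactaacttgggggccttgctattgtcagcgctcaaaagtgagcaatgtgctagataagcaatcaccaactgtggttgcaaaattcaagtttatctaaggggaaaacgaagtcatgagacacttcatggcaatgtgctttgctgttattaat

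The AP-1 motif began 35 bases before the start in Mmp13, 44 in Mmp12 and 46 in Mmp3, and neither motif was found in the Mmp27 window. Counted in bases from the start, the TATA box motif began at -16 in Mmp13, -7 in Mmp3 and 4 in Mmp12. In Mmp12 it thus lay after the listed start. The window of the first listed start of Mmp12, chr9:7344147-7344446, which is not printed, held neither motif. Over the full RefSeq windows, from 250 bases before the start to 50 after, 8 of the 10 genes in the run held the AP-1 motif, all but Mmp8 and Mmp27. Of all 32851 windows in the RefSeq table, 7.81% held the AP-1 motif and 13.6% the TATA box motif. RefSeq windows, 58 in all, were found for 53 of the 84 members, and 13 of the 58 windows held the AP-1 motif. They belonged to 13 genes, of which 8 are the neighbours in the run above. The tested ones were Adam19, Mmp3, Mmp12 and Mmp13. A match describes letters and is not a site in use.

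Mmp3, a stromelysin that cuts proteoglycans and activates other precursors, and Mmp27, a less studied secreted member, were highest in Quiescent. Mmp3 stood at 312, 224 and 268 CPM in the Quiescent libraries, 10.4, 7.25 and 7.93 CPM in Active and 90.6, 32.02 and 76.6 CPM in UVB. The groups did not overlap, and Mmp3 fell 31.3-fold in Active (log2 fold change -4.97 ± 0.40 (SE), adjusted p = 1.8e-05) and 4.03-fold in UVB (log2 fold change -2.01 ± 0.35 (SE), adjusted p = 0.0016). It was higher in UVB than in Active (7.77-fold, adjusted p = 0.0015). Mmp27 stood at 212, 249 and 272 CPM in the Quiescent libraries, 0.499, 0.725 and 0.450 CPM in Active and 8.45, 5.24 and 14.6 CPM in UVB. It showed the largest fold change of any tested member in Active against Quiescent, a fall of 433-fold (log2 fold change -8.76 ± 0.45 (SE), adjusted p = 3.3e-06). In UVB the fall was 25.9-fold (log2 fold change -4.69 ± 0.36 (SE), adjusted p = 3.0e-05), and UVB lay 16.8-fold above Active (adjusted p = 7.5e-04). Each group's libraries were clear of the others.

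Mmp12, the elastase known from macrophages, was highest in UVB. Its level was 2.62, 3.64 and 0.118 CPM in the Quiescent libraries, 7.51, 7.87 and 2.29 CPM in Active and 65.6, 24.2 and 39.4 CPM in UVB. All UVB libraries lay above all others, and the gene rose 20.1-fold in UVB against Quiescent (log2 fold change 4.33 ± 0.86 (SE), adjusted p = 0.0033). Against Active the rise was 7.28-fold (adjusted p = 0.031), a call that was lost without Active replicate 1, 2 or 3 or UVB replicate 1 or 3, with adjusted p between 0.055 and 0.10. Macrophage and dendritic cell markers, 6 genes with none at 0 in a group, summed to 159.7 to 2580.2 CPM in Quiescent, 67.04 to 156 in Active and 1535 to 2643 in UVB, with the highest Quiescent value in replicate 2. An exon of Mmp12 overlaps Mmp1b on the other strand. Mmp13, a collagenase, stood at 1.13, 2.21 and 0.354 CPM in the Quiescent libraries, 14.4, 4.42 and 3.23 CPM in Active and 1.39, 0.890 and 4.39 CPM in UVB. Active replicate 1 was the highest, and the call in Active against Quiescent (5.99-fold, adjusted p = 0.029) was lost without it (3.12-fold, adjusted p = 0.13), without Quiescent replicate 1 (5.76-fold, adjusted p = 0.079) and without Quiescent replicate 3 (4.48-fold, adjusted p = 0.076), and it was 9.55-fold (adjusted p = 0.027) without Quiescent replicate 2.

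**Figure D2:**
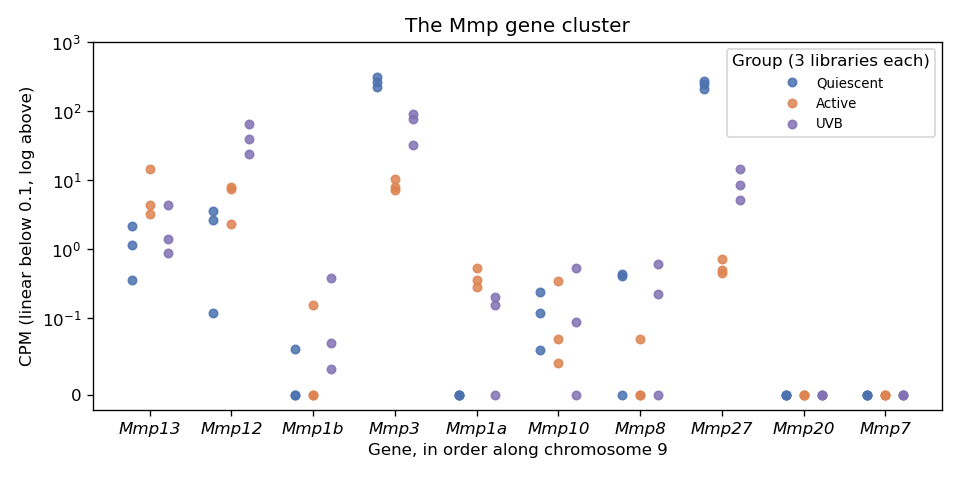
Levels in CPM (linear below 0.1, log above) of the 10 Mmp genes of the chromosome 9 run in the order of the chromosome; each point is 1 library. Mmp3 and Mmp27 are highest in Quiescent and Mmp12 in UVB, while Mmp20 and Mmp7 are at 0 throughout.

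The membrane-type MMPs split between the groups. Of 6 genes, 5 were tested: Mmp15, Mmp16 and Mmp17 rose in Active against Quiescent and Mmp14 fell, and in UVB against Quiescent Mmp25 rose as well. Mmp14, the surface collagenase that also activates the precursor of Mmp2, stood at 2774, 2428 and 2515 CPM in the Quiescent libraries, 455, 414 and 507 CPM in Active and 684, 567 and 904 CPM in UVB. It fell 5.61-fold in Active (log2 fold change -2.49 ± 0.19 (SE), adjusted p = 1.5e-05) and 3.58-fold in UVB (log2 fold change -1.84 ± 0.19 (SE), adjusted p = 1.1e-04), with no overlap of the groups. Mmp15, which spans the membrane as Mmp14 does, stood at 5.55, 3.81 and 5.37 CPM in the Quiescent libraries, 419.9, 504 and 592 CPM in Active and 290.1, 404 and 186 CPM in UVB. Every Active and UVB library exceeded every Quiescent one by a wide margin, and Mmp15 rose 102-fold in Active (log2 fold change 6.68 ± 0.35 (SE), adjusted p = 3.5e-06) and 59.5-fold in UVB (log2 fold change 5.89 ± 0.34 (SE), adjusted p = 8.1e-06). Mmp17, held to the membrane by a lipid anchor, went from 6.10, 3.99 and 4.61 CPM in Quiescent to 164, 204 and 237 in Active and 124, 159.8 and 65.3 in UVB. That was a rise of 40.8-fold (adjusted p = 9.6e-06) in Active and 23.6-fold (adjusted p = 3.5e-05) in UVB. Mmp16, another transmembrane member, rose less, 4.23-fold (adjusted p = 2.8e-05) in Active and 3.94-fold (adjusted p = 6.7e-05) in UVB, from a Quiescent mean of 18.2 ± 2.91 CPM (SD, n = 3). Between UVB and Active, Mmp15 (adjusted p = 0.066) and Mmp17 (adjusted p = 0.089) did not pass the test, but without UVB replicate 2 both were called lower in UVB, at 2.12-fold (adjusted p = 0.022) and 2.13-fold (adjusted p = 0.040). Markers of several cell types differed between these groups. Against Quiescent, 7 of 7 melanocyte markers rose in Active and 6 of 7 in UVB. Of 5 Schwann cell markers, 3 rose and 1 fell in each. Of all genes tested, 29.1% rose in Active and 25.8% in UVB. Between UVB and Active, 6 of 7 melanocyte markers fell and none of the 5 Schwann cell markers passed. The Schwann cell markers, with none at 0 in a group, summed to 40.5 to 69.9 CPM in Quiescent, 507 to 819.7 in Active and 670.2 to 874 in UVB.

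Mmp25, the other lipid-anchored member, known from leukocytes, had few fragments outside UVB: 0, 0.715 and 0 CPM in the Quiescent libraries, 0.187, 0.471 and 0.409 CPM in Active and 9.23, 4.45 and 3.11 CPM in UVB. It rose 24.9-fold against Quiescent (adjusted p = 0.0095), where 2 Quiescent libraries had 0 fragments; without Quiescent replicate 1 it was 15.5-fold (adjusted p = 0.021), and without Quiescent replicate 2 the group was at 0 and UVB at least 80.6-fold higher. In Active against Quiescent Mmp25 did not pass, but without Quiescent replicate 2 it was called higher, by at least 4.88-fold. The rise against Active (15.7-fold, adjusted p = 0.028) was lost without Active replicate 1, 2 or 3 or UVB replicate 1, with adjusted p between 0.073 and 0.10.

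Mmp2, gelatinase A, which cuts denatured collagen and basement membrane collagen, lies at chr8:92827290-92853421, plus strand, and was the most abundant member per length in all groups. Its levels were 4936, 3819 and 4077 CPM in the Quiescent libraries, 543, 622 and 908 CPM in Active and 1212, 1002 and 1102 CPM in UVB. The groups were separate, with falls of 6.19-fold in Active (log2 fold change -2.63 ± 0.22 (SE), adjusted p = 2.2e-05) and 3.87-fold in UVB (log2 fold change -1.95 ± 0.22 (SE), adjusted p = 1.7e-04). UVB lay 1.60-fold above Active (adjusted p = 0.047), which was lost when any library other than Active replicate 3 was left out, with adjusted p between 0.052 and 0.16. Mmp14 was likewise 1.57-fold higher in UVB than in Active (adjusted p = 0.034), a call lost without Active replicate 1, 2 or 3 or UVB replicate 1 or 3 (adjusted p between 0.056 and 0.13). Mmp9, gelatinase B, was far less abundant and varied within groups: 1.84, 11.3 and 0.118 CPM in the Quiescent libraries, 9.01, 2.61 and 5.15 CPM in Active and 23.04, 6.99 and 28.2 CPM in UVB. Its groups overlapped and it passed no comparison, with adjusted p of 0.79 for Active and 0.13 for UVB against Quiescent. Without Quiescent replicate 2, the library with the highest macrophage markers in its group, UVB was called higher (18.5-fold, adjusted p = 0.012).

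Among the remaining Mmp genes, Mmp23, an anchored protease without the usual collagen-binding domain, fell from 219, 201 and 259.5 CPM to 4.89, 5.11 and 5.31 in Active (44.3-fold, adjusted p = 6.3e-06) and 16.1, 11.3 and 28.1 in UVB (12.2-fold, adjusted p = 4.8e-05). Mmp19, a secreted basement membrane protease, stood at 78.04, 61.8 and 143 CPM in the Quiescent libraries, 4.83, 4.53 and 5.68 CPM in Active and 34.4, 36.9 and 50.2 CPM in UVB. It fell 18.8-fold in Active (adjusted p = 1.7e-05) and 2.32-fold in UVB (adjusted p = 0.0085), and UVB was 8.08-fold above Active (adjusted p = 8.7e-04). Exons of Mmp19 overlap Tmem198b on the other strand, so its counts are uncertain where the counting ignored strand. Mmp28, an epithelial member, was 4.34, 1.25 and 1.004 CPM in Quiescent, 4.43, 4.61 and 5.60 in Active and 9.14, 10.6 and 9.72 in UVB. It rose in UVB against Quiescent (4.37-fold, adjusted p = 0.0068). Without Quiescent replicate 1 this was 8.67-fold (adjusted p = 1.7e-04), and Active against Quiescent was then also called higher (4.31-fold, adjusted p = 3.4e-04), as was UVB against Active (2.01-fold, adjusted p = 0.013). Exons of Mmp28 overlap 1700020L24Rik on the opposite strand. The 5 keratinocyte markers, with none at 0 in a group, summed to 1861 CPM in Quiescent replicate 1 and to 499.9 and 102 in replicates 2 and 3. Their sum was 609 to 950 CPM in Active and 214 to 543 in UVB, where Mmp28 was highest. The part of these cells in the level of Mmp28 was not tested.

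**Figure D3:**
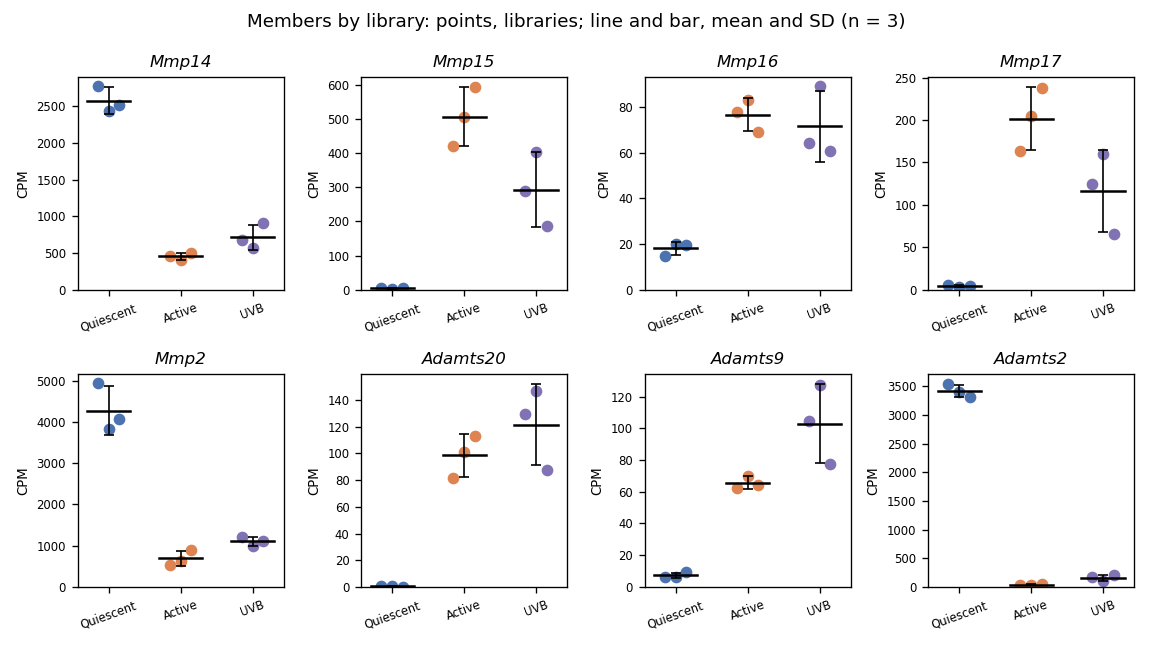
Levels in CPM by group for Mmp14, Mmp15, Mmp16, Mmp17, Mmp2, Adamts20, Adamts9 and Adamts2; points are libraries, and the line and bar are the mean and SD (n = 3). Mmp14, Mmp2 and Adamts2 are highest in the Quiescent libraries and the other 5 genes are lowest there.

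The ADAMTS genes that cut versican and aggrecan moved in both directions. All 7 were tested, and 2 rose and 3 fell in Active against Quiescent, while 3 rose and 2 fell under scaling by library size alone. Adamts20, whose loss in mice gives a white belt through loss of melanoblasts, was near 0 in Quiescent and abundant elsewhere: 0.547, 0.596 and 0.177 CPM in the Quiescent libraries, 81.6, 101 and 113 CPM in Active and 129.9, 147 and 87.8 CPM in UVB. It rose 216-fold in Active (log2 fold change 7.76 ± 0.36 (SE), adjusted p = 2.1e-06) and 266-fold in UVB (log2 fold change 8.06 ± 0.37 (SE), adjusted p = 2.7e-06), the largest rise of a tested member in both. Active and UVB overlapped (adjusted p = 0.40). Adamts9, its closest relative and a versican-cutting protease, stood at 6.41, 6.02 and 9.21 CPM in the Quiescent libraries, 62.5, 70.2 and 64.1 CPM in Active and 104, 127 and 77.3 CPM in UVB. The rise was 9.11-fold in Active (log2 fold change 3.19 ± 0.22 (SE), adjusted p = 1.0e-05) and 14.3-fold in UVB (log2 fold change 3.84 ± 0.23 (SE), adjusted p = 9.8e-06). It was the 1 member called higher in all 3 comparisons, but the call in UVB against Active (1.57-fold, adjusted p = 0.047) was lost without Active replicate 1, 2 or 3, UVB replicate 1 or 2, or Quiescent replicate 1, with adjusted p between 0.060 and 0.14. Vcan, the gene of versican itself, went from 456 to 1185 CPM (2.60-fold, adjusted p = 0.011) in Active against Quiescent.

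Adamts1, another versican-cutting protease and the most abundant ADAMTS in Active and UVB, passed no comparison. Under scaling by library size alone it was called higher in Active against Quiescent. Its levels were 531, 677 and 1025 CPM in the Quiescent libraries, 704, 736 and 1318 CPM in Active and 1047, 937 and 632 CPM in UVB, and all groups overlapped. Adamts15 stood at 64.2, 55.8 and 36.3 CPM in the Quiescent libraries, 3.40, 1.49 and 1.76 CPM in Active and 10.3, 3.60 and 26.7 CPM in UVB, and fell in Active (23.3-fold, adjusted p = 6.4e-04). Its fall in UVB (3.84-fold, adjusted p = 0.031) was lost without Quiescent replicate 1 or 2 or UVB replicate 1 (adjusted p between 0.059 and 0.097), and was 7.45-fold (adjusted p = 0.0030) without UVB replicate 3, the highest of its group.

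Of the procollagen N-proteinases, which trim fibrillar procollagens, Adamts2 showed the largest change. It lies at chr11:50602085-50807573, plus strand. Its level was 3533, 3395 and 3313 CPM in the Quiescent libraries, 34.3, 41.99 and 47.6 CPM in Active and 166, 107 and 211 CPM in UVB, a fall of 82.7-fold in Active (log2 fold change -6.37 ± 0.30 (SE), adjusted p = 2.1e-06) and 21.1-fold in UVB (log2 fold change -4.40 ± 0.27 (SE), adjusted p = 1.0e-05). The groups were far apart, and UVB was 3.91-fold above Active (adjusted p = 0.0015). Its substrates Col1a1 and Col3a1 fell too in Active against Quiescent, from 117728 to 714 CPM (165-fold, adjusted p = 2.0e-06) and from 114133 to 3827 CPM (29.8-fold, adjusted p = 5.1e-06). Both collagen genes are among the 7 fibroblast markers (Col1a1, Col1a2, Col3a1, Pdgfra, Lum, Dcn and Dpt), so their levels are part of that sum. Adamts2 is not one of them. Adamts3, which acts with Ccbe1 on a lymphatic growth factor, had means of 0.512 ± 0.122, 1.13 ± 0.517 and 1.10 ± 0.657 CPM (SD, n = 3) in Quiescent, Active and UVB and passed no comparison, but without Active replicate 3 it was called higher in Active against Quiescent (2.82-fold, adjusted p = 0.046). Adamts14 went from 37.5, 28.01 and 36.5 CPM in Quiescent to 20.8, 29.2 and 20.4 in Active (1.45-fold, adjusted p = 0.040), a call lost without Active replicate 1 or 3, Quiescent replicate 1 or 3 or UVB replicate 3 (adjusted p between 0.051 and 0.15).

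Adamts7, a protease of cartilage oligomeric matrix protein known from vessel walls, rose in both other groups. It stood at 3.64, 5.24 and 2.48 CPM in the Quiescent libraries, 46.1, 69.3 and 75.01 CPM in Active and 59.2, 97.7 and 50.5 CPM in UVB, and increased 16.8-fold in Active (log2 fold change 4.07 ± 0.37 (SE), adjusted p = 3.0e-05) and 18.3-fold in UVB (log2 fold change 4.19 ± 0.37 (SE), adjusted p = 5.4e-05). Exons of Adamts7 overlap Tbc1d2b on the opposite strand by 122 bases. Adamts17, linked to fibrillin microfibrils, went from 6.10, 7.81 and 6.85 CPM to 13.1, 22.6 and 38.6 in Active (3.58-fold, adjusted p = 0.0018) and 20.6, 20.1 and 16.3 in UVB (2.75-fold, adjusted p = 0.0077). Adamts10, also a fibrillin-binding member, went the other way, from 159, 184 and 149 CPM to 27.1, 27.995 and 28.7 in Active (5.88-fold, adjusted p = 3.7e-05) and 65.04, 49.7 and 101 in UVB (2.28-fold, adjusted p = 0.0028). The groups of Adamts10 were separate in every comparison. A single library stood out for Adamts18, at 4.54, 6.02 and 5.26 CPM in the Quiescent libraries, 2.18, 1.27 and 2.13 CPM in Active and 4.70, 3.39 and 25.01 CPM in UVB, where UVB replicate 3 was the highest. UVB against Active was called higher (5.92-fold, adjusted p = 0.032), which was 2.17-fold (adjusted p = 0.049) without UVB replicate 3 and lost without Active replicate 1, 2 or 3 (adjusted p between 0.075 and 0.12). Without UVB replicate 3, Active against Quiescent was called lower (2.82-fold, adjusted p = 0.0031).

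ADAMTS-like genes were lower outside Quiescent where they passed, with 1 exception: of 5 tested, 3 fell in Active, and in UVB 4 fell and Adamtsl3 rose. In Active 2 rose and 2 fell under scaling by library size alone. Adamtsl2, which binds fibrillin and latent TGF-beta binding proteins, stood at 31.1, 31.8 and 36.3 CPM in the Quiescent libraries, 0.218, 0.218 and 0.858 CPM in Active and 1.76, 0.582 and 1.86 CPM in UVB. It fell 78.3-fold in Active (log2 fold change -6.29 ± 0.61 (SE), adjusted p = 4.4e-05) and 23.5-fold in UVB (adjusted p = 2.3e-04), and without Active replicate 3 the fall in Active was 146-fold (adjusted p = 7.3e-05). UVB against Active did not pass but was called higher without Active replicate 3 (6.14-fold, adjusted p = 0.018) or UVB replicate 2 (4.30-fold, adjusted p = 0.023). Adamtsl4, a fibrillin-binding protein needed to hold the eye lens, showed another pattern: 49.1, 55.9 and 37.6 CPM in the Quiescent libraries, 62.1, 41.8 and 38.7 CPM in Active and 11.2, 8.39 and 16.6 CPM in UVB. Quiescent and Active overlapped (adjusted p = 1.0), and UVB lay below both, 3.94-fold under Quiescent (log2 fold change -1.98 ± 0.29 (SE), adjusted p = 6.5e-04) and 3.94-fold under Active (log2 fold change -1.98 ± 0.29 (SE), adjusted p = 0.0029). It was the 1 member called lower in UVB against Active. Adamtsl5 went from 109, 98.1 and 120.4 CPM in Quiescent to 8.54, 8.99 and 8.71 in Active (12.5-fold, adjusted p = 2.4e-05) and 19.4, 14.9 and 36.8 in UVB (4.60-fold, adjusted p = 4.1e-04). Adamtsl1 stood at 112, 109 and 127 CPM in the Quiescent libraries, 45.3, 61.97 and 104 CPM in Active and 71.5, 48.5 and 55.1 CPM in UVB. Its call in Active (1.65-fold, adjusted p = 0.049) was lost when any library but Active replicate 3 was left out (adjusted p between 0.054 and 0.14), and that in UVB (1.99-fold, adjusted p = 0.017) without UVB replicate 2 (1.83-fold, adjusted p = 0.062). The rise of Adamtsl3 in UVB (2.34-fold, adjusted p = 0.033) was lost without Quiescent replicate 1, 2 or 3 or UVB replicate 1 or 3 (adjusted p between 0.055 and 0.11).

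A class of 9 ADAMs was grouped here as sheddases: Adam8, Adam9, Adam10, Adam12, Adam15, Adam17, Adam19, Adam28 and Adam33. All but Adam28 were tested. Of these 8, 3 rose and 3 fell in Active against Quiescent, and 5 rose and 2 fell in UVB against Quiescent. In these comparisons 4 rose and 2 fell under scaling by library size alone, and 6 and 0. Adam10, the main sheddase of Notch receptors and cadherins, stood at 139, 133 and 149 CPM in the Quiescent libraries, 334, 296 and 273 CPM in Active and 276, 304 and 284 CPM in UVB. The rise was modest but clear of the spread, 2.15-fold in Active (log2 fold change 1.10 ± 0.11 (SE), adjusted p = 5.3e-05) and 2.06-fold in UVB (log2 fold change 1.04 ± 0.11 (SE), adjusted p = 1.3e-04). Adam17, the sheddase of tumour necrosis factor and of EGF receptor ligands, stood at 114, 134 and 162 CPM in the Quiescent libraries, 159, 158 and 176 CPM in Active and 174, 198 and 183 CPM in UVB. It did not pass in Active (adjusted p = 0.12), though without Quiescent replicate 3 it did (1.33-fold, adjusted p = 0.018). Under scaling by library size alone it was also called higher in Active. Its call in UVB (1.35-fold, adjusted p = 0.026) was lost without Quiescent replicate 1 or 2 or UVB replicate 2 (adjusted p between 0.064 and 0.083). Exons of Adam17 overlap Iah1 on the other strand.

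Adam9, a widely expressed sheddase, was 160.1, 162 and 220.3 CPM in the Quiescent libraries, 106, 106 and 135 CPM in Active and 146, 147 and 157 CPM in UVB. It fell in Active (1.56-fold, adjusted p = 0.0065), a direction that flipped under scaling by library size alone, and did not pass in UVB against Quiescent (adjusted p = 0.18). UVB against Active did not pass but was called higher without Quiescent replicate 3 (1.29-fold, adjusted p = 0.046). Adam19, a sheddase of neuregulin, went from 68.7, 62.04 and 77.2 CPM in Quiescent to 225, 309.8 and 281 in Active (3.92-fold, adjusted p = 4.7e-05) and 268, 315 and 200.1 in UVB (3.77-fold, adjusted p = 1.0e-04). Its Quiescent libraries lay under all others. Adam12, a sheddase known from muscle and cartilage, was 86.4, 79.1 and 208 CPM in the Quiescent libraries, 324, 316 and 234 CPM in Active and 252, 348 and 219 CPM in UVB. It was called higher in Active (2.34-fold, adjusted p = 0.019) and in UVB (2.19-fold, adjusted p = 0.031). Without Quiescent replicate 3, the highest of its group, these became 3.53-fold (adjusted p = 4.6e-04) and 3.30-fold (adjusted p = 0.0010). The first call was lost without Active replicate 1 or 2 or Quiescent replicate 1 or 2 (adjusted p between 0.052 and 0.063), and the other without Quiescent replicate 1 or 2 or UVB replicate 1 or 2 (adjusted p between 0.058 and 0.10). Adam15, a disintegrin that binds integrins, fell from 125, 161 and 125 CPM to 37.02, 34.3 and 33.7 in Active (3.91-fold, adjusted p = 2.7e-05) and 68.5, 69.04 and 99.3 in UVB (1.73-fold, adjusted p = 0.0044), and rose in UVB against Active (2.25-fold, adjusted p = 0.0028).

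Adam33, a mesenchymal ADAM known as an asthma gene, stood at 69.3, 68.8 and 49.4 CPM in the Quiescent libraries, 1.12, 1.09 and 0.450 CPM in Active and 14.6, 9.73 and 33.8 CPM in UVB. It fell 69.2-fold in Active (log2 fold change -6.11 ± 0.56 (SE), adjusted p = 3.4e-05). UVB lay 21.4-fold above Active (log2 fold change 4.42 ± 0.53 (SE), adjusted p = 0.0013), or 13.4-fold (adjusted p = 9.0e-04) without UVB replicate 3. Its fall in UVB against Quiescent (3.23-fold, adjusted p = 0.013) was 5.13-fold (adjusted p = 7.7e-04) without that library and did not pass without UVB replicate 1 (2.87-fold, adjusted p = 0.050). Adam8, a leukocyte sheddase, was the ADAM that set UVB apart: 3.05, 7.33 and 1.42 CPM in the Quiescent libraries, 5.08, 2.43 and 1.39 CPM in Active and 48.03, 26.5 and 23.9 CPM in UVB. All UVB libraries were above all others. The rise was 8.38-fold against Quiescent (log2 fold change 3.07 ± 0.65 (SE), adjusted p = 0.0045) and 10.97-fold against Active (log2 fold change 3.46 ± 0.66 (SE), adjusted p = 0.0081). Without Quiescent replicate 2 the first was 14.4-fold (adjusted p = 0.0024), and without Active replicate 1 the other was 17.1-fold (adjusted p = 0.017). Mmp12, Mmp25 and Adam8 all had their highest level in UVB replicate 1. The macrophage and dendritic sum was highest in UVB replicate 3, where Mmp25 and Adam8 had their lowest UVB level. Among the UVB libraries it was lowest in replicate 2, as was Mmp12. Of the macrophage and dendritic markers, 5 of 6 rose in UVB against Active and 1 of 6 against Quiescent, whose replicate 2 had a sum within the UVB range. The T cell markers, 4 genes with none at 0 in a group, summed to 0.0591 to 0.977 CPM in Quiescent, 1.23 to 2.09 in Active and 8.03 to 14.2 in UVB. Over UVB replicates 1, 2 and 3 that sum was 14.2, 10.7 and 8.03 CPM, the order of Mmp25 and Adam8. The 5 mast cell markers, of which Fcer1a was at 0 in Quiescent, summed to 2.78 to 8.76 CPM in Quiescent, 5.19 to 10.1 in Active and 55.6 to 109 in UVB, and 4 of 4 tested were higher in UVB than in either other group. Neutrophil markers, 4 genes with none at 0 in a group, summed to 2.24 to 8.88 CPM in Quiescent, 2.53 to 5.67 in Active and 5.99 to 8.78 in UVB. Of these, 0 of 4 passed in UVB against Quiescent, and 1 of 4 was higher in UVB than in Active. Among the UVB libraries the mast cell and neutrophil sums were both highest in replicate 3. What part any of these cell types had in the levels was not tested.

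The 3 ADAMs of neural tissue lack catalytic activity and bind LGI proteins at the cell surface. Adam23 stood at 37.4, 21.8 and 88.05 CPM in the Quiescent libraries, 314, 462 and 632 CPM in Active and 546, 404 and 475 CPM in UVB, a rise of 9.57-fold in Active (log2 fold change 3.26 ± 0.50 (SE), adjusted p = 5.4e-04) and 9.68-fold in UVB (log2 fold change 3.28 ± 0.50 (SE), adjusted p = 8.1e-04). Quiescent replicate 3 was the highest of its group, and without it the rises were 15.9-fold (adjusted p = 1.3e-04) and 16.04-fold (adjusted p = 2.7e-04). Adam22 went the other way, at 13.1, 19.5 and 12.8 CPM in the Quiescent libraries, 1.28, 0.689 and 1.02 CPM in Active and 4.25, 2.05 and 7.90 CPM in UVB. It fell 15.1-fold in Active (log2 fold change -3.91 ± 0.51 (SE), adjusted p = 2.2e-04), and its fall in UVB (3.19-fold, adjusted p = 0.015) did not pass without UVB replicate 1 (3.03-fold, adjusted p = 0.053). Adam11 stood at 5.47, 3.22 and 1.83 CPM in the Quiescent libraries, 6.26, 10.3 and 30.3 CPM in Active and 26.4, 10.1 and 21.1 CPM in UVB. It was called higher in UVB (5.42-fold, adjusted p = 0.014) and in Active (4.39-fold, adjusted p = 0.020), the latter lost without Active replicate 3 or Quiescent replicate 2 or 3 (adjusted p between 0.058 and 0.076). The LGI ligands also split: Lgi4, the LGI protein of glia, rose in Active from 72.1 to 483 CPM (6.69-fold, adjusted p = 2.4e-05), while Lgi1 (from 16.4 to 0.145 CPM, 111-fold, adjusted p = 4.7e-04), Lgi2 and Lgi3 fell. In UVB against Quiescent the same 4 genes gave 1 higher and 3 lower.

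Of the 4 inhibitors, Timp2 and Timp3 fell outside Quiescent and Timp1 rose in UVB. Timp2, which blocks MMPs and also carries the precursor of Mmp2 to Mmp14, lies at chr11:118301061-118355411, minus strand. It stood at 4947, 4351 and 3865 CPM in the Quiescent libraries, 623, 619.6 and 788 CPM in Active and 945, 805 and 1049.8 CPM in UVB, a fall of 6.48-fold in Active (log2 fold change -2.70 ± 0.18 (SE), adjusted p = 8.8e-06) and 4.70-fold in UVB (log2 fold change -2.23 ± 0.18 (SE), adjusted p = 3.5e-05). No Quiescent library overlapped with another group, and the falls of Timp2, Mmp2 and Mmp14 lay between 5.61-fold and 6.48-fold in Active and between 3.58-fold and 4.70-fold in UVB. Timp3, the matrix-bound inhibitor that also acts on ADAM17 and ADAMTS enzymes, stood at 852, 1051 and 471 CPM in the Quiescent libraries, 247, 257 and 442 CPM in Active and 332, 266 and 355 CPM in UVB. It fell 2.51-fold in Active (log2 fold change -1.33 ± 0.32 (SE), adjusted p = 0.0069) and 2.49-fold in UVB (log2 fold change -1.32 ± 0.32 (SE), adjusted p = 0.0092). Under scaling by library size alone Timp3 did not pass in either (adjusted p = 0.13 in both), and of the 4 inhibitors 1 rose and 1 fell in each comparison with Quiescent.

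Timp1, the inhibitor induced by cytokines and injury, stood at 20.1, 11.4 and 21.7 CPM in the Quiescent libraries, 21.3, 17.1 and 12.1 CPM in Active and 51.998, 53.5 and 45.7 CPM in UVB. Quiescent and Active overlapped (adjusted p = 0.82), and UVB was above both, 2.84-fold over Quiescent (log2 fold change 1.51 ± 0.27 (SE), adjusted p = 0.0020) and 2.99-fold over Active (log2 fold change 1.58 ± 0.27 (SE), adjusted p = 0.0054). Timp4 was low, at 3.87, 3.46 and 4.02 CPM in the Quiescent libraries, 1.59, 3.08 and 4.21 CPM in Active and 1.89, 0.616 and 3.68 CPM in UVB, and passed no comparison, although without UVB replicate 3 it was called lower in UVB against Quiescent (2.995-fold, adjusted p = 0.048). Per length, Timp2 exceeded the other inhibitors in each group, at 1234 ± 155 FPKM in Quiescent (SD, n = 3), while Timp1 reached 69.7 ± 6.9999 FPKM in UVB. Timp1 lies inside an intron of Syn1 and Timp3 inside an intron of Syn3, both on the opposite strand. Exons of Timp4 overlap Syn2 on the opposite strand by 90 bases.

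**Figure D4:**
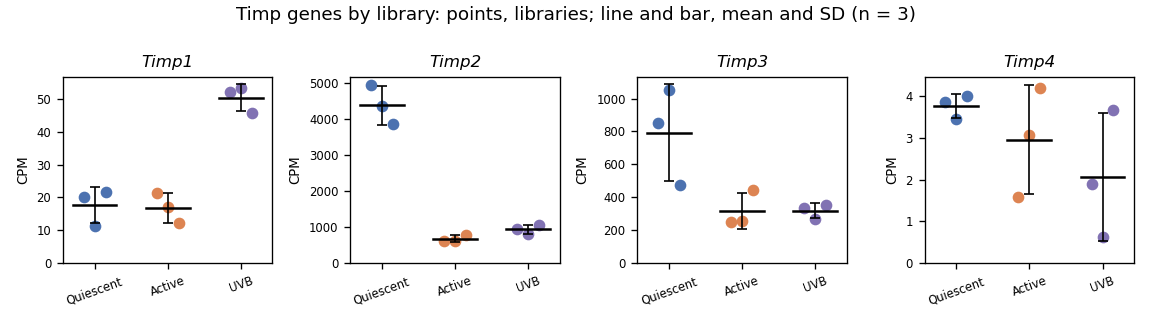
Levels in CPM of Timp1, Timp2, Timp3 and Timp4 by group; points are libraries, and the line and bar are the mean and SD (n = 3). Timp2 and Timp3 are highest in Quiescent, and the 3 UVB libraries of Timp1 lie above the other 6.

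Every tested member falls in 1 of 12 patterns of calls. Higher in both Active and UVB than in Quiescent, with no call between them, were 12: Adam10, Adam11, Adam12, Adam19, Adam23, Adamts7, Adamts12, Adamts17, Adamts20, Mmp15, Mmp16 and Mmp17; Adamts9 was called higher in UVB than in Active as well. Lower in both, and higher in UVB than in Active, were 13: Adam15, Adam22, Adam33, Adamts2, Adamts10, Adamts15, Adamtsl5, Mmp2, Mmp3, Mmp14, Mmp19, Mmp23 and Mmp27. Lower in both with no call between them were 6, namely Adamts8, Adamtsl1, Adamtsl2, Mmp11, Timp2 and Timp3. The UVB call of Adamts8 was lost without any library but Active replicate 3 and Quiescent replicate 3 (adjusted p between 0.052 and 0.17). That of Mmp11 was lost without Quiescent replicate 1 or 2 or UVB replicate 1 or 2 (adjusted p between 0.051 and 0.083) and was 7.40-fold (adjusted p = 0.0036) without UVB replicate 3. The call of Adamts12 in Active was lost without Active replicate 2 or 3 or Quiescent replicate 1 or 2 (adjusted p between 0.068 and 0.084). The calls of Adamts4 and Adamts6 were lower in Active than in either other group, and those of Adam4, Adam5, Adam9 and Adamts14 were lower in Active than in Quiescent only. Adam8, Mmp12, Mmp25 and Timp1 were higher in UVB than in either other group, and Adam17, Adamtsl3 and Mmp28 were higher in UVB than in Quiescent. Mmp13, Adamts18 and Adamtsl4 each had a pattern of its own, given above. Adam1a, Adamts1, Adamts3, Adamts5, Mmp9 and Timp4 passed no comparison, although without Quiescent replicate 3 Adamts5 was called higher in UVB against Quiescent (1.90-fold, adjusted p = 0.0053). Under scaling by library size alone Adam1a, Adamts1 and Adamts3 were called higher in Active against Quiescent. The call of Adam4 was lost without any library but Active replicate 1 and UVB replicate 2 (adjusted p between 0.055 and 0.14). That of Adam5 was lost without Active replicate 2 (adjusted p = 0.071), and without Active replicate 3 it was 9.63-fold (adjusted p = 0.0025) and UVB against Active was called higher (4.28-fold, adjusted p = 0.044). In UVB against Active, Adamts4 lost its call without Active replicate 1 or 2 or UVB replicate 3 (adjusted p between 0.052 and 0.078), and Adamts6 without Active replicate 1 or 2 or UVB replicate 1 or 3 (adjusted p between 0.070 and 0.11). Without Active replicate 3 the fall of Adamts6 in Active was 13.4-fold (adjusted p = 7.9e-04), and it was also called lower in UVB against Quiescent (2.27-fold, adjusted p = 0.041). A pattern of calls does not show that 2 comparisons differ.

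In UVB against Active the 21 higher members were spread over all families, and 11 kept the call whichever library was left out: Adam8, Adam15, Adam33, Adamts2, Adamts10, Adamtsl5, Mmp3, Mmp19, Mmp23, Mmp27 and Timp1. Of these, 9 were also called lower in both UVB and Active against Quiescent, all but Adam8 and Timp1. Their level in UVB was thus between those of Active and Quiescent. The fibroblast marker sum had that order, and so did 5 endothelial markers, at 272 to 359 CPM in Quiescent, 15.05 to 19.1 in Active and 108 to 206 in UVB. The 5 smooth muscle and pericyte markers summed to 734 to 1019 CPM in Quiescent, 73.7 to 117 in Active and 108 to 246 in UVB. In UVB against Active 7 of 7 fibroblast, 5 of 5 endothelial and 3 of 5 smooth muscle markers rose, and none of the last 10 was at 0 in a group. The 1 lower member, Adamtsl4, kept its call without each library too. In Active against Quiescent 10 of 14 higher and 21 of 25 lower calls were kept in this way, and in UVB against Quiescent 17 of 20 and 14 of 20.

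**Figure D5:**
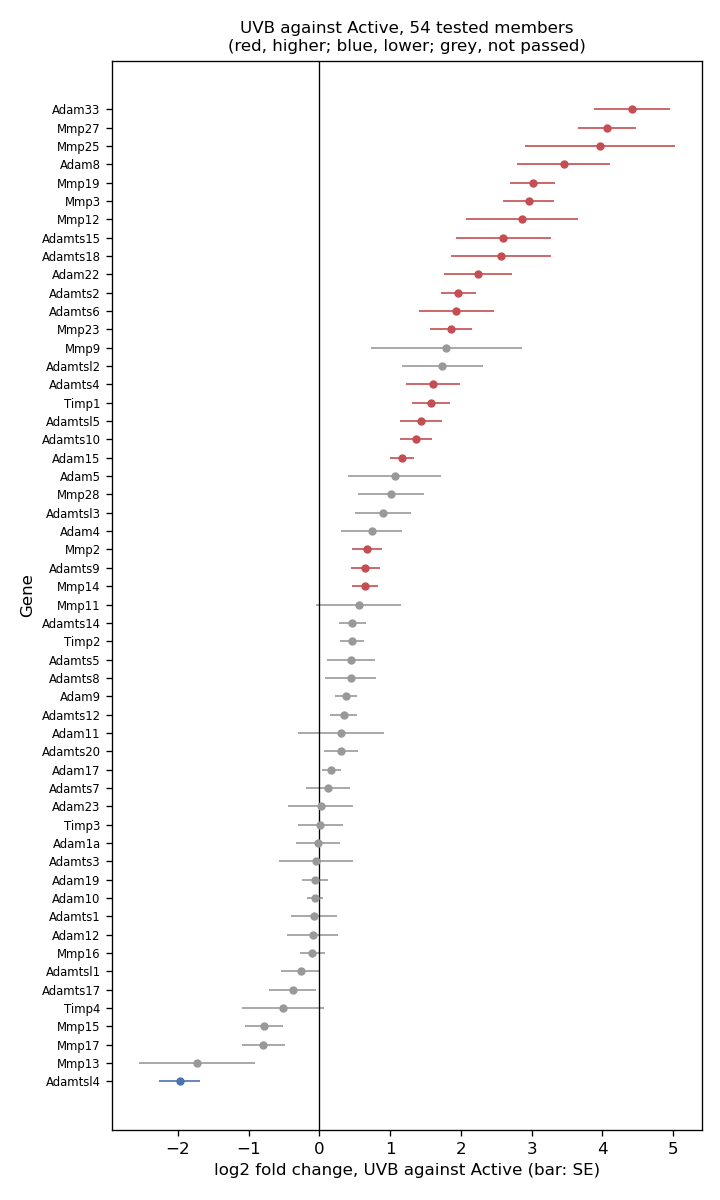
Log2 fold change of each tested member in UVB against Active, with its SE as the bar; red, higher and blue, lower at an adjusted p under 0.05, grey, not passed. Adam33 and Mmp27 are the furthest to the right, and Adamtsl4 is the 1 blue gene.

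Genes that act on these proteases moved as follows. Of 8 tested genes for other inhibitors and for clearance, 6 fell and 1 rose in Active against Quiescent (median log2 fold change -3.12, beside 0.01 over all genes). Lrp1, the receptor that clears proteases and their inhibitor complexes, went from 3087 to 356 CPM (8.66-fold, adjusted p = 2.8e-05). Reck, a membrane-anchored MMP inhibitor, went from 289 to 52.7 CPM (5.48-fold, adjusted p = 2.1e-04). Serpine2, an inhibitor of serine proteases, rose from 36.2 to 331 CPM (9.13-fold, adjusted p = 1.4e-05). Among 8 tested activators of the precursors, 4 fell and 1 rose in Active (median -0.63), while 4 rose and 3 fell under scaling by library size alone. Pcsk5, a proprotein convertase, went from 63.6 to 9.42 CPM (6.75-fold, adjusted p = 1.8e-05), and Plat, tissue plasminogen activator, from 103 to 155 CPM (1.51-fold, adjusted p = 0.030).

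All 9 genes that carry ADAM10 and ADAM17 to the surface were tested. Of these, 5 rose and 1 fell in Active (median 0.96), and 7 rose and 1 fell in UVB against Quiescent (median 1.36). Over all genes 29.1% rose and 29.2% fell in Active, and 25.8% and 23.2% in UVB. Under scaling by library size alone 7 of the 9 rose and 1 fell in Active, and 8 and 1 in UVB. Tspan15, a tetraspanin partner of ADAM10, went from 8.19 to 112 CPM (13.6-fold, adjusted p = 3.9e-06) in Active. Frmd8, which stabilises the iRhom partners of ADAM17, went from 29.6 to 82.7 CPM (2.79-fold, adjusted p = 2.0e-05). Tspan5, another ADAM10 partner, fell from 71.3 to 14.5 CPM (4.90-fold, adjusted p = 1.8e-04). Of 20 shed substrates, 7 rose and 7 fell in Active, near the shares over all genes, and 7 and 2 in UVB against Quiescent. In these comparisons 10 rose and 5 fell under scaling by library size alone, and 13 and 1. L1cam, a neural adhesion molecule, rose in Active from 5.18 to 363 CPM (69.95-fold, adjusted p = 5.1e-06), and Notch1 from 28.04 to 168 CPM (6.003-fold, adjusted p = 5.9e-05), whereas Notch2 fell from 96.05 to 37.7 CPM (2.55-fold, adjusted p = 6.9e-05).

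Of 19 tested matrix substrates and fibrillin partners, 10 fell and 3 rose in Active (median -1.10), 8 fell and 5 rose in UVB against Quiescent (median -0.33), and 9 were higher in UVB than in Active. In the comparisons with Quiescent 4 rose and 8 fell under scaling by library size alone for Active, and 5 and 5 for UVB. The rises included the basement membrane collagen genes Col4a1 (from 588 to 2333 CPM, 3.97-fold, adjusted p = 1.5e-04) and Col4a2 (from 339 to 1747 CPM, 5.15-fold, adjusted p = 1.0e-04) in Active. Fbn1, the fibrillin to which several ADAMTS and ADAMTS-like proteins bind, fell from 4565 to 239 CPM (19.1-fold, adjusted p = 4.9e-06).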

How the data were processed

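RNA was measured in 9 libraries, 3 each of Quiescent, Active and UVB, grouped by the labels. Per the labels' protocols, RNA of sorted cells was poly(A)-selected and prepared with a directional kit. Tools named in the submitters' processing notes are cutadapt 1.8, TopHat2 2.0.13 and Cuffdiff 2.2.1, with the build mm10. Not given in the sources used here are the annotation, the options and whether counting used strand, so genes that overlap on opposite strands may share fragments. The estimated counts deposited by the authors are fragments per gene and library before scaling, per the file headers. The deposited FPKM values carry the authors' own length and library scaling and were used to compare levels between genes and in 2 alternatives.

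Counts were rounded and fitted with edgeR 4.0.16 in R 4.3.3 (TMM factors, filterByExpr, quasi-likelihood F test, 1 mean per group over all 9 libraries). The filter left 15078 of 23361 genes. P-values are two-sided and Benjamini-Hochberg adjusted over these, with a threshold of 0.05. The standard error is the log2 fold change divided by the square root of F. CPM is the count per 1000000 of the library total times its TMM factor. The fit was also run on simulated counts in which few genes changed, unlike these data, so that run does not test the scaling. Library totals were 21045070 to 35131778 fragments, which sets the precision for low members; a group at 0 was given 3 fragments as its limit, for counting error only. Alternatives were other scaling factors, DESeq2 1.42.0, limma 3.58.1 on log2(FPKM + 1) and log2(FPKM + 0.1), other filters, a fit of 2 groups, a replicate block and leaving out each library. Positions and promoters are from RefSeq (GRCm38.p6), the build that mm10 stands for; gene overlaps are from GENCODE M21.

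Members and lists were chosen with earlier results of these data known. Named with values were the Timp genes, Mmp2, Mmp9, Mmp14, Adam9, Adam10 and Adam17, up to 12 called members per direction with the largest change and at least 1 CPM in a group, and up to 3 list genes per direction. Adam15, Adamts1, Adamts3, Adamts10, Adamts14, Adamtsl1 and Adamtsl3 were added after their values were seen.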

Additional observations from a re-analysis of the deposited data

How the results depend on the processing

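The same replicate numbers appear in each group. Deviations of same-numbered libraries correlated at -0.17 to 0.23, and those of different-numbered libraries at -0.21 to 0.26. With so few libraries this cannot decide whether the numbers pair them. With a replicate block the members called were 13 higher and 24 lower in Active against Quiescent, 19 and 18 in UVB against Quiescent, and 16 and 1 in UVB against Active. Scaling by library size alone gave 23 higher in Active and 10 lower in UVB against Quiescent, and turned the log2 fold changes of Timp1 (0.69) and Adam9 (0.12) in Active and of Adam9 in UVB against Quiescent (0.47), because it shifts all genes. Lower calls in UVB against Active numbered 2 with DESeq2 and 2 with limma on log2(FPKM + 1); the cause was not tested. Leaving out 1 library gave 12 to 15 higher and 22 to 24 lower in Active against Quiescent, 18 to 21 and 15 to 21 in UVB against Quiescent, and 11 to 22 and 1 to 3 in UVB against Active, where 13 were higher without Active replicate 1, 11 without Active replicate 2, and 3 lower without UVB replicate 2. Of 87 results for named members, 78 to 87 kept direction and call under each alternative. Mmp25, Adamtsl2, Mmp13, Adamts20 and Mmp27 have few fragments in 1 or more groups, which limits their folds. Adamts20 had 27 fragments over the Quiescent libraries and Mmp27 had 47 over the Active ones.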
